A study of Homo sapiens with 9 samples.

Results

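Long noncoding RNAs are transcripts that are not translated into protein, and many of them are abundant in carcinomas. The 10 described here are NEAT1, MALAT1, MIR205HG, MIR31HG, GAS5, UCA1, LINC03033, LINC00511, PVT1 and TUG1, which are 10 of the 78894 gene identifiers in the deposited files. They were chosen by name, by matching symbols to Ensembl identifiers with earlier results of these data known. Their levels and differences from Control are therefore given as descriptions, with standard errors and without p-values. All 10 passed the filter on low values (at least 1 TPM in at least 2 distinct libraries), as did 17100 genes in all.

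RNA was sequenced from CAL27 cells, an established tongue carcinoma line of squamous type. By its title the series looks for an enhancer that drives such tumours of the head and neck, and it sets Control cells (3 samples) against CRISPR-edited knockout cells named A2ko, A8ko and C9ko (2 samples each). All groups were grown alike with no treatment, and RNA was extracted with TRIZOL, selected for polyA and made into libraries by the dUTP method. The labels name neither the edited sequence nor whether a knockout is 1 clone or a pool, and the edit could not be checked in any sample. They do not say whether replicates came from separate cultures, so errors measure only the spread between these samples.

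The files of the 2 A2ko samples were identical, as were those of the 2 A8ko samples, and both files of each pair carried the column name of replicate B. With each pair taken once there were 7 distinct libraries, of which Control had 3, C9ko 2, and A2ko and A8ko 1 each. Values for A2ko and A8ko thus have no replicate check. The values are TPM, a transcript's share of its library corrected for length, and the depth behind them is unknown. The 8 squamous epithelial markers were above 1 TPM in every library and summed to 15084 to 16252 TPM in Control and 6405 to 9877 TPM in the knockouts. Most of that sum was KRT5 and KRT14, both lower than every Control library in every knockout library, as was DSG3. CDH1 was higher in every knockout library. EPCAM and SFN were higher in A8ko and C9ko and lower in A2ko. KRT17 was higher in A2ko and lower in A8ko, and TP63 was lower in A2ko and A8ko and higher in C9ko. Of the other cell types' markers, COL3A1 (fibroblasts) and KDR (endothelium) were listed at 0 in every library, and PTPRC (leukocytes) did not pass 0.0232 TPM. Other markers of these types were present. The highest of fibroblasts, COL1A1, was at 5.82 to 6.81 TPM in Control, against 13.4 (A2ko), 5.56 (A8ko), 8.07 and 8.61 (C9ko) in the knockouts. COL1A2 and LUM were above 1 TPM in every Control library. The summed fibroblast markers were 10.8 to 12.2 TPM in Control and 7.36 to 17.7 TPM in the knockouts. Those of leukocytes, nearly all CD68, were 28.4 to 32.8 and 14.8 to 67.3 TPM, and those of endothelium, nearly all CDH5, 3.51 to 4.55 and 8.63 to 30.1 TPM. Mitochondrial transcripts took 23.1% to 26.9% of the TPM in Control and 17.9% to 25.2% in the knockouts. The part of these markers and shares in the results was not tested. In bulk RNA, fewer cells of a type and less RNA per cell cannot be told apart.

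The 10 RNAs work in different ways. NEAT1 is the scaffold of paraspeckles, nuclear bodies that hold RNA-binding proteins, and MALAT1 is an abundant RNA of nuclear speckles, where splicing factors gather. MIR205HG and MIR31HG are host genes, whose primary transcripts contain the microRNAs miR-205 and miR-31, both common in squamous epithelium. GAS5 is the host gene of a set of small nucleolar RNAs (snoRNAs), which guide the modification of ribosomal RNA. UCA1, LINC00511 and PVT1 are known from carcinomas, PVT1 as the neighbour of MYC, and TUG1 is a widely expressed RNA first described in the retina. LINC03033, called FLJ22447 in GENCODE release 29 and lncRNA-CAF in RefSeq, has been described in the stromal fibroblasts of oral carcinoma, where it was linked to interleukin 33.

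The ends of NEAT1 and MALAT1 are shown first, because the libraries were selected for polyA and these RNAs do not all end in an ordinary polyA tail. The long form of NEAT1 (22743 bases) and MALAT1 end in an A-rich stretch written in the genome, which folds into a triple helix. The short forms of NEAT1 end after the usual signal for adding a polyA tail. Capitals mark the A-rich stretch in the long NEAT1, the last part of that stretch in MALAT1 and the polyA signal in the short NEAT1. In MALAT1 the run of A begins in lower case, before the capitals. All are transcripts of GENCODE 29 on GRCh38, plus strand.
NEAT1-202, last 100 bases, chr11:65445441-65445540: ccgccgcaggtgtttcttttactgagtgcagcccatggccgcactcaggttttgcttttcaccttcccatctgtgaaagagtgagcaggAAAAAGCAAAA
NEAT1-208, last 60 bases, chr11:65426454-65426513: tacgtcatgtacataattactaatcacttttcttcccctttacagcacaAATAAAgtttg
MALAT1-202, chr11:65506017-65506116: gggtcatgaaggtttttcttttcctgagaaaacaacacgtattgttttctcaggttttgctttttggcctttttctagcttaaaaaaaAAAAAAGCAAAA
In NEAT1-202 the A-rich stretch is the end of the transcript, and in NEAT1-208 the polyA signal lies 5 bases before it. In MALAT1-202 the stretch lies 353 bases before the annotated end. How much of each RNA was captured was not tested, and the files give 1 value per gene, so forms of NEAT1 cannot be told apart.

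The microRNAs of the 2 host genes are shown because the host transcripts, not the mature microRNAs, were measured. Capitals mark the seed, bases 2 to 8, which pairs with targets (RefSeq, GRCh38.p14).
hsa-miR-205-5p, chr1:209432166-209432187, plus strand: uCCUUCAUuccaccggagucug
hsa-miR-205-3p, chr1:209432203-209432223, plus strand: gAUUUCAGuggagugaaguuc
hsa-miR-31-5p, chr9:21512158-21512178, minus strand: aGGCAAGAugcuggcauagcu
The 3 seeds differ. The miR-205 hairpin lies within the span of 8 of the 10 annotated MIR205HG transcripts and wholly inside an exon of 0 of them. The miR-31 hairpin lies within the span of the single annotated MIR31HG transcript and not wholly inside an exon. Whether a hairpin lies partly in an exon was not counted. The deposited rows of the hairpins themselves held at most 0.0988 TPM for MIR205 and 0.4998 TPM for MIR31, which says nothing of the mature forms.

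In Control cells the 10 RNAs lay between 12.3 and 973.5 TPM. NEAT1 was highest, at 973.5 ± 53.0 TPM (SD, n = 3), the 126th highest of the 17100 tested genes. MIR205HG followed with 306.1 ± 11.4 TPM (SD, n = 3) and GAS5 with 277.1 ± 11.98 TPM (SD, n = 3). These highest RNAs did not overlap one another in any Control library. MALAT1 (87.8 ± 25.8 TPM, SD, n = 3), TUG1 (84.3 ± 0.680), UCA1 (69.2 ± 5.49), PVT1 (54.4 ± 3.85) and LINC00511 (52.8 ± 3.77) came next. The range of MALAT1 took in all of TUG1 and UCA1 and reached into PVT1, and the ranges of PVT1 and LINC00511 overlapped each other. The lowest were MIR31HG with 15.7 ± 3.21 TPM and LINC03033 with 12.3 ± 0.713 TPM (SD, n = 3), whose ranges also overlapped. The coefficient of variation was 29.4% for MALAT1, 20.4% for MIR31HG and between 0.806% and 7.93% for the other 8 RNAs.

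**Figure D1:**
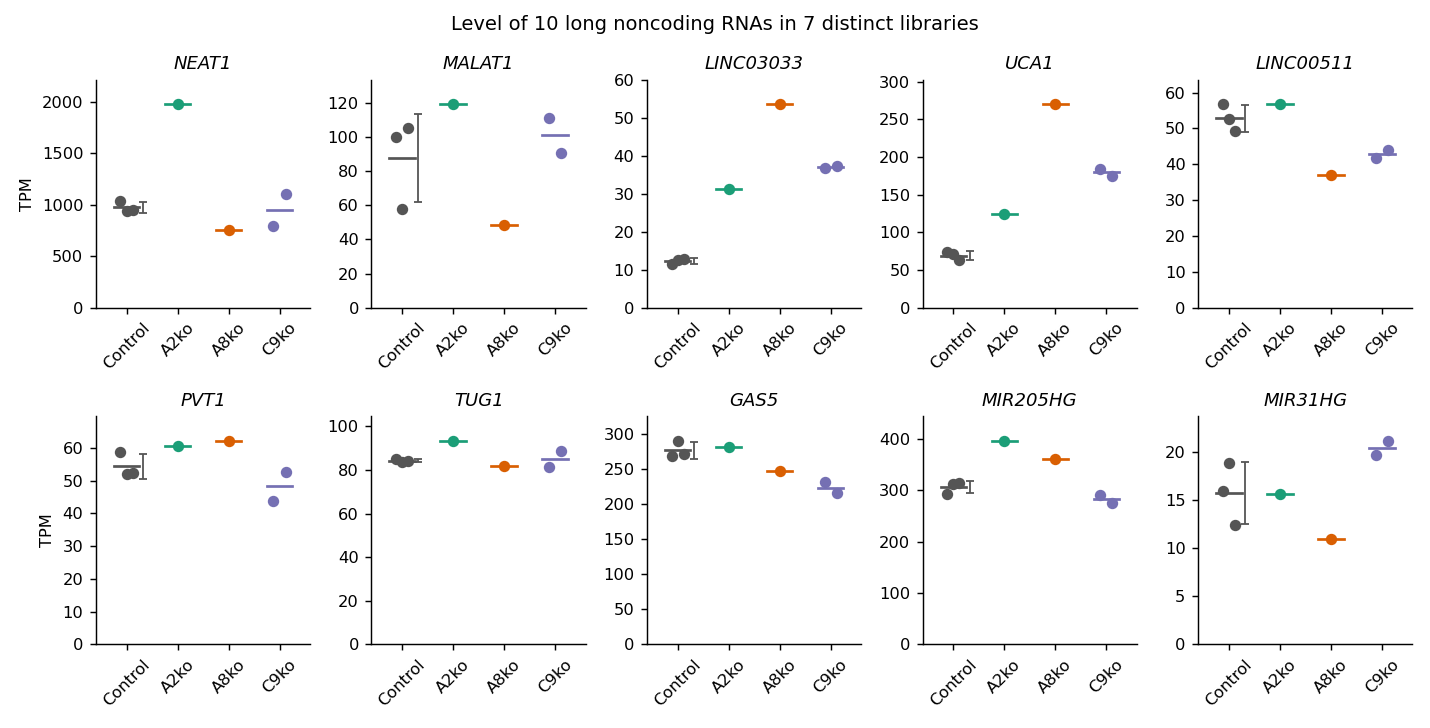
TPM (y axis, from 0) of each of the 10 RNAs in the 7 distinct libraries, by group (x axis); points are libraries, short lines are group means and the bar beside Control is its SD (n = 3). LINC03033 and UCA1 lie above Control in every knockout library, whereas NEAT1 is high in A2ko alone, at 1977 TPM.

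The knockouts did not share 1 direction across these RNAs. LINC03033 and UCA1 were higher in all 4 distinct knockout libraries than in any Control library, NEAT1 reached 2.03 times its Control mean in A2ko only, and LINC00511 and GAS5 were lower in A8ko and C9ko. MIR205HG, MIR31HG, PVT1 and TUG1 differed from Control by less than 0.5 log2 units in each knockout. In A2ko 7 of the 10 RNAs lay above every Control library (50.4% of all tested genes) and 0 below (26.3%). In A8ko 4 lay above (46.9%) and 6 below (26.4%), so none lay within the Control range. In C9ko, in both libraries, 3 lay above (41.1%) and 3 below (16.4%). In either direction these were 76.7%, 73.3% and 57.5% of all tested genes, so lying outside the Control range was common. All 4 knockout libraries lay above every Control library for 2 of the 10 RNAs, against 17% of all tested genes, and below for 0 of the 10, against 4.61% (21.6% in either direction). The comparisons share the same 3 Control libraries, so they are not independent. On the log2(TPM + 1) scale used from here on, the median of all tested genes was itself higher than Control by 0.12 (A2ko), 0.09 (A8ko) and 0.11 (C9ko), and differences of that size are within the general shift.

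**Figure D2:**
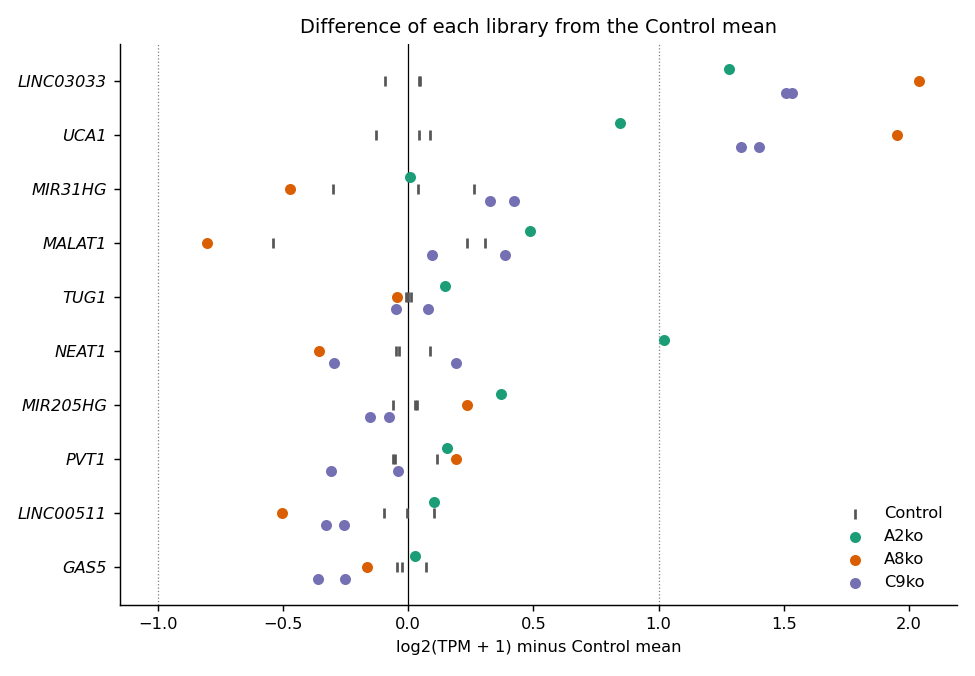
Difference of each distinct library from the Control mean (x axis, log2(TPM + 1)) for the 10 RNAs (y axis, ordered by C9ko), with Control libraries as ticks, knockouts as points and dotted lines at 1 log2 unit. LINC03033 passes 1 log2 unit in every knockout library and UCA1 in A8ko and C9ko.

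Among the nuclear body RNAs, NEAT1 (ENSG00000245532, chromosome 11, 65422774 to 65445540, plus strand) was at 1034, 939.3 and 946.7 TPM in Control, against 1977 (A2ko), 758.9 (A8ko), 790.6 and 1109 (C9ko) in the knockouts. A2ko stood alone above the other libraries, A8ko lay below every Control library, and the C9ko libraries fell on either side of the Control range. From Control it differed by 1.02 (A2ko), -0.36 (A8ko) and -0.05 (C9ko, SE 0.14) on the log2 scale. After scaling by the median of ratios the A2ko difference was 0.89, and without Control 2 it was 0.997, so whether it passes 1 log2 unit depends on the scaling and on that library. Counting RNAs that were outside the Control range and 1 log2 unit or more from its mean, 2 of the 10 (NEAT1 and LINC03033, both higher) passed in A2ko, against 5.07% of all tested genes (3.54% higher, 1.53% lower).

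MALAT1 (ENSG00000251562, chromosome 11, 65497688 to 65506516, plus strand) was at 100.1, 58.2 and 105.2 TPM in Control, against 119.4 (A2ko), 48.3 (A8ko), 111.4 and 90.7 (C9ko) in the knockouts. Control 2 lay far below the other Control libraries, near A8ko. The log2 differences were 0.49 (A2ko), -0.80 (A8ko) and 0.24 (C9ko, SE 0.25), the widest standard error of the 10. Control 2 also had the highest mitochondrial share, 26.9%, against 23.1% and 23.5% in Control 1 and 3, and the part of that share in the MALAT1 value was not tested. Without Control 2 the A8ko difference of MALAT1 was -1.07. NEAT1 and MALAT1 are neighbours, and FRMD8 is the nearest tested protein-coding gene at lower positions. FRMD8 was at 64.7 to 73.5 TPM in Control, against 85.4 (A2ko), 58.4 (A8ko), 58.4 and 61.3 (C9ko) in the knockouts, thus above the Control range in A2ko and below it in the others, with log2 differences of 0.29, -0.25 and -0.22.

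Proteins of both nuclear bodies were read from lists. Of 18 tested paraspeckle proteins, limma called 3 in C9ko at an adjusted p under 0.05, all higher, and the list median was 0.11, equal to that of all genes to 2 decimals. Of all tested genes 29.5% were called in this comparison (22% higher, 7.42% lower), and 41.6% had an unadjusted p under 0.05. NUDT21, a cleavage factor subunit, rose by 0.35 (SE 0.06, limma adjusted p 0.00435) and the RNA-binding protein EWSR1 by 0.22 (limma adjusted p 0.0427). RBM14 rose by 0.21 (limma adjusted p 0.0353) and was at 57.5 to 59.2 TPM in Control and 94.8 TPM in A2ko, the library with the highest NEAT1. HNRNPR was the only listed protein gene past 1 log2 unit in A2ko, at 69.5 TPM against 133.1 to 155.9 in Control. The core paraspeckle genes NONO, SFPQ and PSPC1 were not called in C9ko (limma adjusted p 0.410, 0.153 and 0.371), and were named after their values were seen. In A2ko their log2 differences were -0.22, -0.05 and 0.48, with PSPC1 at 58.7 TPM against 40.1 to 42.5 in Control. Of 19 tested speckle proteins 4 were called in C9ko, all higher, with a list median of 0.11 (0.105 against 0.109 for all genes). They were the kinase CLK1 at 0.45 (limma adjusted p 0.00612) and the splicing factors SRSF1 at 0.44 (limma adjusted p 0.0138), SRRM1 at 0.27 (limma adjusted p 0.0308) and U2AF1 at 0.24 (limma adjusted p 0.0471). In all knockouts together, with each group as 1 value, limma called 0 genes of either list, with 2 paraspeckle and 3 speckle genes at an unadjusted p under 0.05. Of all tested genes 1.03% were called (0.509% higher, 0.52% lower), and 16% had an unadjusted p under 0.05.

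Of the microRNA host genes, MIR205HG (ENSG00000230937, chromosome 1, 209428820 to 209432838, plus strand) was at 293.0, 312.0 and 313.4 TPM in Control, against 396.2 (A2ko), 360.2 (A8ko), 290.2 and 275.5 (C9ko) in the knockouts. A2ko and A8ko lay above the Control range and both C9ko libraries lay below it. The log2 differences were 0.37, 0.23 and -0.11 (SE 0.06 for C9ko), so the sign differed between the knockouts by small amounts. TP63, a lineage factor of squamous cells, was at 271.3 to 296.2 TPM in Control, against 194.0 (A2ko), 265.0 (A8ko), 307.6 and 312.8 (C9ko) in the knockouts (chosen after its values were seen). The nearest tested protein-coding gene at higher positions is LAMB3, a laminin chain, at 149.8 to 166.7 TPM in Control. LAMB3 rose by 0.93 in C9ko (SE 0.07, limma adjusted p 1.64e-04). At lower positions PLXNA2, a semaphorin receptor, rose by 1.03 in C9ko (limma adjusted p 3.76e-04). MIR205HG lay slightly below Control in the same libraries. In A2ko and A8ko LAMB3 (0.235 and 0.828) and PLXNA2 (0.671 and 0.484) also lay above every Control library, as MIR205HG did.

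MIR31HG (ENSG00000171889, chromosome 9, 21455642 to 21559669, minus strand) was at 16, 18.8 and 12.4 TPM in Control, against 15.6 (A2ko), 10.9 (A8ko), 19.7 and 21.2 (C9ko) in the knockouts. C9ko lay above and A8ko below a Control range that was itself wide. In log2 units it differed from Control by 0.01 (A2ko), -0.47 (A8ko) and 0.38 (C9ko, SE 0.16), and by -0.11 in A2ko after median-of-ratios scaling. Most genes around it were higher in C9ko too: of the 27 other tested genes within 5 Mb on either side, 20 were above every Control library in both C9ko libraries (41.1% of all tested genes) and 0 were below, with a median of 0.49. In A8ko the median of the same genes was -0.08 and in A2ko 0.13. KLHL9, the nearest tested protein-coding gene at lower positions, rose by 0.46 in C9ko (SE 0.08, limma adjusted p 0.00718). MTAP, the nearest at higher positions, was at 49.4 to 66.1 TPM in Control and 65.6 and 109.7 TPM in C9ko. Whether the position accounts for the level of MIR31HG was not tested. MIR31HG overlaps the interferon gene IFNE on the same strand, and reads shared between them cannot be assigned from these files.

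Other microRNA host genes were read from a list of 19, of which 16 were tested. In C9ko limma called 3 higher and 1 lower, a share of 25% against 29.5% of all genes. MIR4435-2HG rose by 0.75 (limma adjusted p 6.51e-04), with 147.5 and 129.4 TPM in C9ko against 78.0 to 83.7 in Control. The other knockouts held 113.4 TPM (A2ko) and 155.9 TPM (A8ko). It has a near-identical copy, CYTOR, so reads could be split between them, and CYTOR rose as well, by 0.97 (limma adjusted p 8.81e-04). MIR155HG rose by 0.52 (limma adjusted p 0.0380) and MIR222HG by 0.27 (limma adjusted p 0.0400), whereas MIRLET7BHG fell by 0.49 (limma adjusted p 0.0110). Past 1 log2 unit from Control in A2ko were MIR17HG, host of a cluster of growth-related microRNAs, and MIR9-3HG. MIR17HG was at 1.16 TPM in A2ko against 2.89 to 5.29 in Control, and MIR9-3HG at 0.445 TPM against 1.71 to 2.76. In A8ko MIR3142HG was past it, at 4.23 TPM against 0 to 0.502 in Control. MIR3142HG passed the filter on low values only through A8ko and 1 C9ko library (1.30 TPM), where it was high, so nothing is read from it. In all knockouts together 0 of the 16 were called by limma, with 1 at an unadjusted p under 0.05.

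GAS5 (ENSG00000234741, chromosome 1, 173863900 to 173868882, minus strand) was at 268.6, 290.8 and 272.0 TPM in Control, against 282.4 (A2ko), 247.2 (A8ko), 232.4 and 215.8 (C9ko) in the knockouts. A2ko lay within the Control range, while A8ko and both C9ko libraries lay below it. On the log2 scale the differences were 0.03, -0.16 and -0.31 (SE 0.07 for C9ko), with -0.10 for A2ko after median-of-ratios scaling. RC3H1, the nearest tested protein-coding gene at higher positions, differed by 0.04 in C9ko. GAS5 overlaps ZBTB37 and GAS5-AS1 on the other strand, and whether counting used strand is not given in the sources used here.

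Other snoRNA host genes were called in both directions. Of 21 tested, limma called 4 higher and 5 lower in C9ko, 42.9% of the list, against 29.5% of all tested genes (22% higher, 7.42% lower). The list median was 0.00 against 0.11 for all genes, and nothing particular to the list is read from these shares. SNHG16 rose by 0.56 (SE 0.10, limma adjusted p 0.00527) and SNHG12 by 0.52 (limma adjusted p 0.00768). SNHG5 fell by 0.52 (SE 0.10, limma adjusted p 0.0106) and SNHG6 by 0.47 (limma adjusted p 0.00863). The list median was -0.23 in A2ko and 0.15 in A8ko, with no member past 1 log2 unit in either. In all knockouts together 0 of the 21 were called by limma, with 0 at an unadjusted p under 0.05.

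Among the carcinoma RNAs, UCA1 (ENSG00000214049, chromosome 19, 15828206 to 15836326, plus strand) was at 73.5, 71.1 and 63.0 TPM in Control, against 124.9 (A2ko), 270.2 (A8ko), 184.3 and 175.0 (C9ko) in the knockouts. Every knockout library lay above every Control library, and the 3 knockouts were well apart from one another, at 1.80, 3.90 and 2.595 times the Control mean. In A8ko its TPM passed that of GAS5. Relative to the Control mean, log2 differences were 0.85 (A2ko), 1.95 (A8ko) and 1.37 (C9ko, SE 0.08). UCA1 and LINC03033 were the 2 of 10 RNAs past 1 log2 unit in A8ko, where 4.73% of all tested genes passed (2.05% higher, 2.68% lower), and in C9ko, where 5.11% did (3.33% higher, 1.78% lower). The nearest tested protein-coding gene, CYP4F11, a cytochrome P450, went the other way in 2 knockouts: it was at 16.1 to 16.9 TPM in Control, against 20.5 (A2ko), 10.7 (A8ko), 12.4 and 13.0 (C9ko) in the knockouts, and fell by 0.36 in C9ko (limma adjusted p 0.00988). On the far side WIZ differed by at most 0.11 in any knockout. UCA1 overlaps LINC01764 on the other strand.

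LINC03033 (ENSG00000232774, chromosome 14, 61570540 to 61658696, plus strand) was at 11.5, 12.7 and 12.7 TPM in Control, against 31.3 (A2ko), 53.7 (A8ko), 36.8 and 37.5 (C9ko) in the knockouts. The order of the knockouts, A2ko lowest and A8ko highest, was that of UCA1. Its log2 differences from Control were 1.28, 2.04 and 1.52 (SE 0.07 for C9ko), and 1.61 (SE 0.19) over the 3 knockout groups. Limma called 1 of the 10 RNAs, LINC03033, in all knockouts together, against 1.03% of all tested genes. The RNAs were chosen with this contrast known, so nothing is read from the call, which was lost when any 1 Control library or C9ko was left out.

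The gene's start is shown because it is the RNA with the widest span of group means, 2.04 log2 units. Capitals mark the first 50 transcribed bases (RefSeq, GRCh38.p14, plus strand).
LINC03033, chr14:61570290-61570589: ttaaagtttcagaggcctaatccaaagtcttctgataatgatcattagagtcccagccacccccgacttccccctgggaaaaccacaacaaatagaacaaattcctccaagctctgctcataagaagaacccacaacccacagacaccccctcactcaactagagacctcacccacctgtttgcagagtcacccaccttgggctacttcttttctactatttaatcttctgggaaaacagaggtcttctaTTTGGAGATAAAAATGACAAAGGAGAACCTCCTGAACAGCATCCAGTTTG
On either strand this window held 0 matches to TGANTCA (the AP-1 motif), GGGANNNNCC (an NF-kB type motif), ACAATG (a SOX type motif) or ACGTG (the core of the hypoxia response element). Of 35116 promoter windows of the same length, 7.71%, 25.6%, 10.8% and 21.4% held them. Windows were found for 7 of the 10 RNAs, with none for NEAT1, PVT1 and UCA1.

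LINC03033 lies between PRKCH, a protein kinase C gene that ends 19564 bases before it, and HIF1A, the hypoxia-inducible factor subunit, which starts 36817 bases after it. PRKCH was at 13.5 to 14.6 TPM in Control, against 11.5 (A2ko), 22.3 (A8ko), 17.4 and 17.9 (C9ko) in the knockouts, and rose in C9ko by 0.30 (SE 0.07, limma adjusted p 0.0228). HIF1A was at 410.2 to 423.4 TPM in Control, against 447.0 (A2ko), 466.5 (A8ko), 500.2 and 764.0 (C9ko) in the knockouts, and rose in C9ko by 0.57 (SE 0.16, limma adjusted p 0.0386). Both neighbours differed by less than LINC03033 in each knockout. IL33, which encodes interleukin 33, was listed at no more than 0.0709 TPM in any library. On its own strand LINC03033 overlaps ENSG00000258989, and on the opposite one LINC01303.

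**Figure D3:**
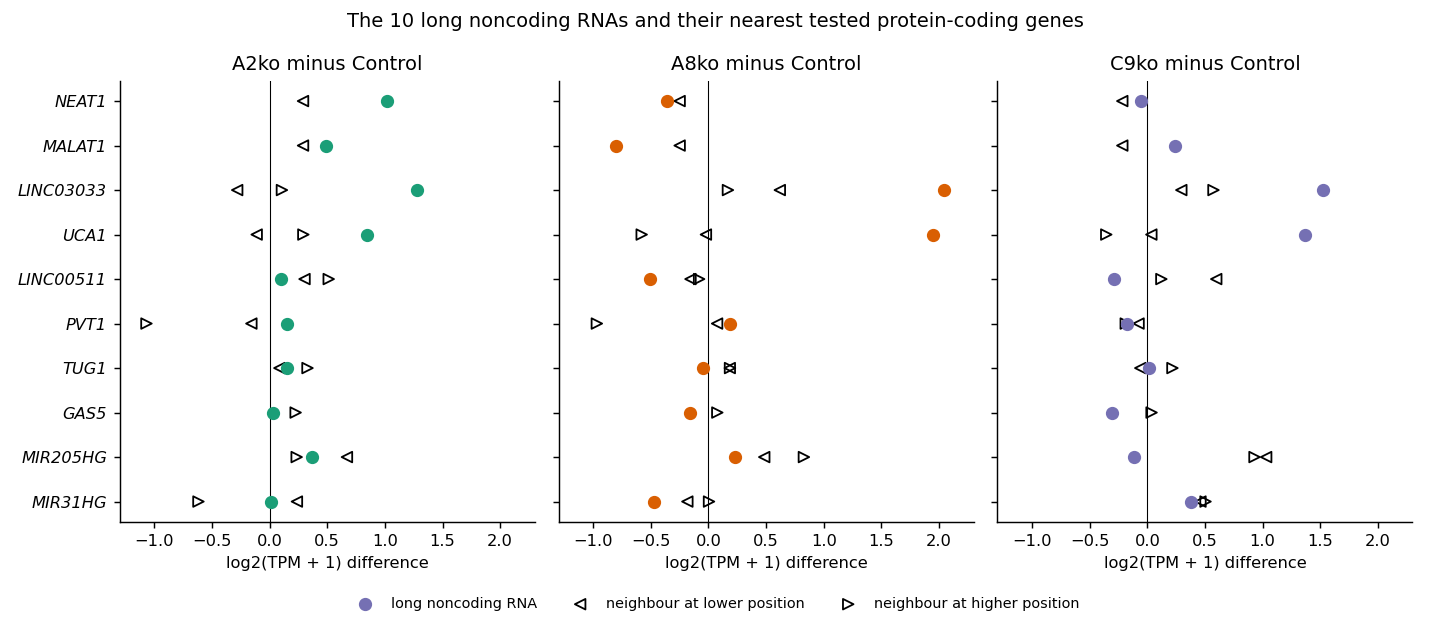
Log2(TPM + 1) difference from Control (x axis) of each of the 10 RNAs (filled) and of the nearest tested protein-coding genes on either side (open triangles), in A2ko, A8ko and C9ko, with no triangle at higher positions for NEAT1 and MALAT1 or at lower positions for GAS5. The differences of LINC03033 and UCA1 exceed those of their neighbours in all 3 knockouts, and MIR31HG in C9ko lies beside its own.

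LINC00511 (ENSG00000227036, chromosome 17, 72290091 to 72640472, minus strand) was at 56.8, 52.5 and 49.2 TPM in Control, against 56.7 (A2ko), 36.9 (A8ko), 41.8 and 44.0 (C9ko) in the knockouts. A2ko was within the Control range, and A8ko and both C9ko libraries were below it, as for GAS5. In log2 units it differed from Control by 0.10, -0.50 and -0.29 (SE 0.08 for C9ko), and by -0.03 in A2ko after median-of-ratios scaling. The nearest tested protein-coding gene, the zinc transporter SLC39A11 at 5477 bases, differed by 0.12 in C9ko (limma adjusted p 0.364). On the other side, at 163671 bases, SOX9, a transcription factor gene, went the other way from LINC00511 in C9ko. SOX9 was at 9.96 to 11.1 TPM in Control and 16.8 and 16.2 TPM in C9ko, a rise of 0.60 (SE 0.08, limma adjusted p 0.00183). In A8ko SOX9 lay below every Control library (-0.156), as LINC00511 did, and in A2ko it lay above every Control library (0.303). In C9ko limma called 4 of the 10 RNAs, against 29.5% of all genes, with UCA1 and LINC03033 higher (22% of all genes) and LINC00511 and GAS5 lower (7.42%), and nothing is read from these calls either. The calls of UCA1 and LINC03033 held in every alternative fit of this comparison, whereas LINC00511 was lost without Control 1, Control 2 or either C9ko library and GAS5 without C9ko 2. Both were also lost without the filter and with the replicate number as a block.

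PVT1 (ENSG00000249859, chromosome 8, 127794533 to 128101253, plus strand) was at 58.8, 52.0 and 52.3 TPM in Control, against 60.6 (A2ko), 62.1 (A8ko), 43.7 and 52.7 (C9ko) in the knockouts. A2ko and A8ko lay above the Control range, and of the C9ko libraries 1 lay below it and 1 within it. On the log2 scale the differences were 0.16, 0.19 and -0.17 (SE 0.10 for C9ko, 95% interval -0.41 to 0.06). Its neighbour MYC was at 270.9 to 282.5 TPM in Control and 245.8 to 293.5 TPM in the knockouts. Less the median of all tested genes, PVT1 differed by 0.04 in A2ko, 0.10 in A8ko and -0.28 in C9ko. On the other side, 1646943 bases away, GSDMC was at 3.35 to 4.54 TPM in Control, against 1.32 (A2ko), 1.49 (A8ko), 3.44 and 3.12 (C9ko) in the knockouts.

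TUG1 (ENSG00000253352, chromosome 22, 30969245 to 30979395, plus strand) had the narrowest Control spread, at 85.0, 83.7 and 84.2 TPM, against 93.4 (A2ko), 81.8 (A8ko), 81.5 and 88.9 (C9ko). A2ko lay above and A8ko below the Control range, with the C9ko libraries on either side. Relative to the Control mean, log2 differences were 0.15, -0.04 and 0.01 (SE 0.06 for C9ko, 95% interval -0.14 to 0.17). After median-of-ratios scaling they were 0.02 (A2ko), -0.14 (A8ko) and -0.12 (C9ko). Its span of group means, 0.19, was the smallest of the 10. MORC2, which lies 947 bases away, differed by 0.09, 0.19 and -0.06.

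Other long noncoding RNAs known from carcinomas were read from a list of 36, of which 25 were tested. Limma called 6 higher and 5 lower in C9ko, 44.0% of the list, against 29.5% of all tested genes (22% higher, 7.42% lower). The list median was 0.13 against 0.11 for all genes, and nothing is read from these shares. The count includes FENDRR, SNHG14 and CASC9. These passed the filter on low values only through the libraries where they were high and are therefore given without p-values. FENDRR was at no more than 0.123 TPM in Control and at 1.35 and 1.65 TPM in C9ko. LUCAT1, a stress-induced RNA, rose by 1.18 (limma adjusted p 0.00504) from 1.24 to 1.95 TPM to 6.20 and 4.03 TPM. CASC9, known from squamous carcinoma of the oesophagus, was at 0.373 and 0.325 TPM in C9ko against 3.66 to 4.24 in Control. It was at 3.74 TPM in A2ko and listed at 0 in A8ko. The imprinted RNA H19 fell by 2.76 in C9ko (limma adjusted p 1.31e-05). SNHG14 was at 1.48 to 2.19 TPM in Control and at most 0.0228 TPM in the knockouts. Over all knockouts limma called 2 genes of the list, H19 (adjusted p 0.00359) and SNHG14, against 1.03% of all tested genes. Of all list genes 1 was called without Control 1, and 0 without Control 2 or without Control 3. Past 1 log2 unit in A2ko and not in A8ko were TINCR, a differentiation-linked RNA of epidermis, at 12.9 TPM against 5.55 to 5.72 in Control, and HOTAIR at 4.79 TPM against 1.40 to 1.63 (both chosen after their values were seen). In A8ko they were at 3.34 and 0.986 TPM, below every Control library. How many of all tested genes were above Control in A2ko and below it in A8ko was not counted. Nothing is read from this pattern.

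**Figure D4:**
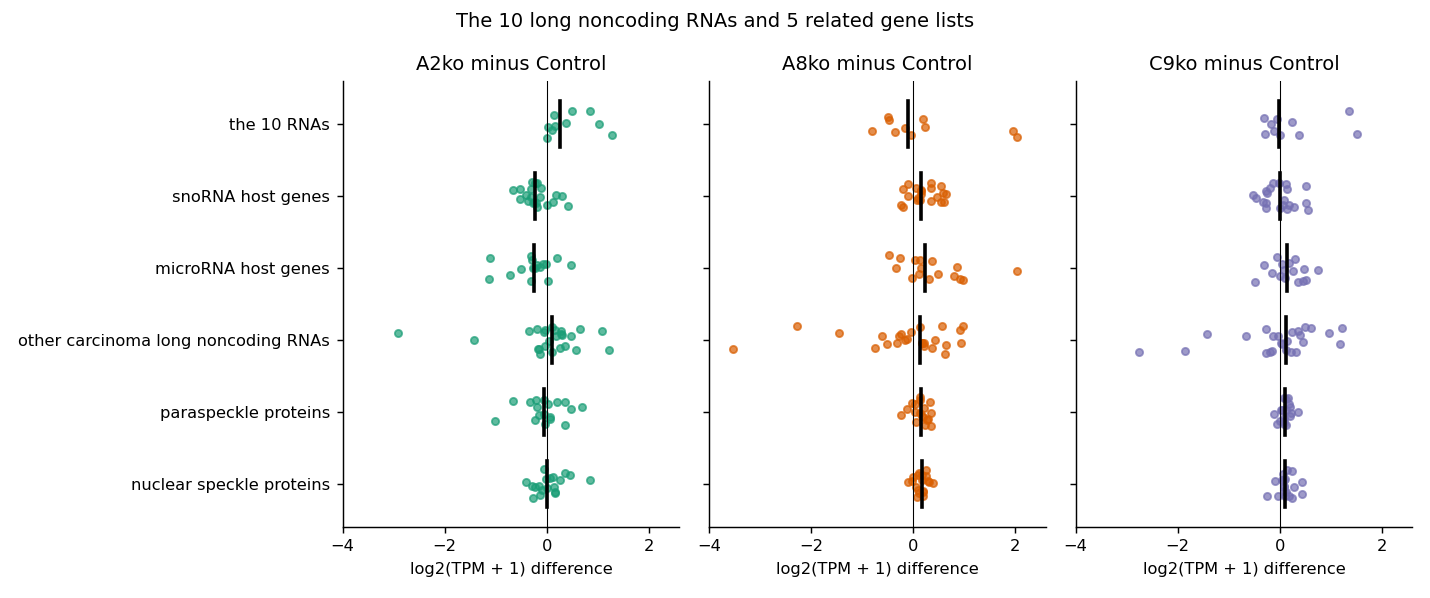
Log2(TPM + 1) difference from Control (x axis) in A2ko, A8ko and C9ko for the 10 RNAs and the tested genes of 5 lists (y axis); points are genes and black bars are medians. Of the 5 lists, the other carcinoma long noncoding RNAs spread furthest in each knockout, with H19 lowest.

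The genes whose level followed an RNA most closely were found for the 3 with the widest span of group means, by Pearson correlation of log2(TPM + 1) over the 7 distinct libraries among expressed genes with a symbol and a mean of at least 5 TPM. The points share groups and libraries, so r is a description. For LINC03033 they were the metallothionein MT2A (r = 0.994), TRAM2 (0.992) and TTYH3 (0.990). MT2A was at 2656 to 2961 TPM in Control and 4137 to 4830 in the knockouts, and TRAM2 at 9.39 to 9.71 and 18.4 to 23.2. For UCA1 they were PTX3, a secreted pattern recognition protein (r = 0.996), ZNF746 (0.993) and DONSON (0.989). PTX3 was at 2.98 to 3.99 TPM in Control, against 8.55 (A2ko), 27.6 (A8ko), 16.2 and 14.7 (C9ko) in the knockouts. For NEAT1 they were AASS, an enzyme of lysine breakdown (r = 0.994), the autophagy protease ATG4D (0.991) and the SUMO protease SENP6 (0.988). AASS was at 5.70 to 6.18 TPM in Control, against 10.3 (A2ko), 4.67 (A8ko), 4.78 and 6.20 (C9ko) in the knockouts.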

How the data were processed

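The deposited values are TPM per Ensembl gene identifier, computed by the authors on hg38, per the submitters' processing notes. The aligner, quantification tool, annotation release and use of strand are not given in the sources used here. TPM keeps no record of depth, so no counting interval is given, and a rise of abundant genes lowers all others. The A2ko values summed to 129.8 TPM above the total of the scale.

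Symbols came from a table in which 61463 of 78894 identifiers had one, and positions from GENCODE release 29 (GRCh38), which held 57342. Values were taken as log2(TPM + 1), which understates differences of low genes. Genes with at least 1 TPM in at least 2 distinct libraries were tested. All 4 groups were fitted together for C9ko (R 4.3.3, limma 3.58.1, lmFit, eBayes with trend, Benjamini-Hochberg over 17100 genes), two-sided, at an adjusted p under 0.05. For all knockouts, 3 group means were compared with 3 Control libraries. A2ko and A8ko have 1 library each and no test. By the same count, 105 to 113 genes passed when 1 Control library was held against the other 2. The fits were tested on simulated data.

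The 10 RNAs and 5 gene lists were chosen with earlier results of these data known. Named beside the 10 RNAs were their nearest tested protein-coding genes, the 3 best correlated genes of the 3 RNAs with the widest span, and, per list, the 2 highest and 2 lowest called genes in C9ko, those called in all knockouts, and up to 3 past 1 log2 unit in A2ko or A8ko. Alternatives were the pseudocount (0.1), median-of-ratios scaling, removal of mitochondrial genes, the filter, left-out libraries or groups, the samples in the fit and a replicate block. Some neighbouring genes are not reported here.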

Additional observations from a re-analysis of the deposited data

Results flagged for a closer look

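In 6 pairs of values, 2 knockouts lay on opposite sides of all Control libraries, which is why they are listed. The share of all tested genes with such a pair was not counted. Lying outside the Control range was common, with 76.7% of all tested genes in A2ko, 73.3% in A8ko and 57.5% in C9ko. Nothing particular to these RNAs is read from the pairs. A2ko and A8ko have 1 distinct library each, and the differences between knockouts were not tested. NEAT1 was above Control in A2ko and below it in A8ko, with 1.38 log2 units between them. MALAT1 had the same pattern, with 1.288 log2 units, and its Control libraries ranged from 58.2 to 105.2 TPM. TUG1 had it too, by 0.19 log2 units, and its A2ko difference of 0.147 became 0.017 after median-of-ratios scaling. MIR205HG was above Control in A2ko and A8ko and below it in C9ko, with 0.485 log2 units from A2ko to C9ko and 0.348 from A8ko to C9ko. MIR31HG was above Control in C9ko and below it in A8ko, with 0.847 log2 units between them, and the 27 tested genes around it had medians of 0.49 and -0.08 in these knockouts.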

How the results depend on the processing

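For the 10 RNAs, 346 of 410 log2 differences under an alternative setting moved by less than the Control SD, and no difference beyond the Control range changed sign. That count includes settings that cannot move a difference, namely the filters, all 9 files, Control and C9ko only, and the average within the fit of all groups. It thus overstates how stable the differences were. Scaling by the median of ratios lowered the differences by about the general shift, so that TUG1 in C9ko went from 0.01 to -0.12, LINC00511 in A2ko from 0.10 to -0.03 and GAS5 in A2ko from 0.03 to -0.10. It left 1 of the 10 RNAs past 1 log2 unit in A2ko instead of 2, and in C9ko it called 6 of the 10 instead of 4, adding MIR205HG and PVT1, both lower. A pseudocount of 0.1 gave 1813 genes past the fold in A2ko and 1689 in A8ko, against 867 and 809, and a mean of at least 5 TPM gave 380 and 412, with 1 list gene called in all knockouts instead of 2. Without the filter, calls in C9ko were 2 of the 10 RNAs and 12 list genes, against 4 and 31, and in all knockouts 23 genes, 0 of the 10 RNAs (2 at an unadjusted p under 0.05, limma) and 1 list gene, against 176, 1 and 2. Counting all 9 files gave 8166 called genes in C9ko, against 5038. In all knockouts the average within the fit of all 4 groups called 4361 genes, 3 of the 10 RNAs and 25 list genes. Without A2ko these were 1993, 2 and 13, without C9ko 67, 0 (3 at an unadjusted p under 0.05, limma) and 1, and without A8ko 1 list gene was called.

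Leaving out 1 library gave 3301 to 4174 genes, 2 to 4 of the 10 RNAs and 18 to 23 list genes in C9ko. In all knockouts, leaving out a Control library gave 5 to 11 genes, 0 of the 10 RNAs (2 at an unadjusted p under 0.05 each time, limma) and 0 to 1 list genes. Past the fold it gave 893 to 909 genes and 1 to 2 of the 10 RNAs in A2ko, and 843 to 870 genes and 2 to 3 of the 10 RNAs in A8ko. The cause of these changes was not tested. With the replicate number as a replicate block, C9ko had 3248 genes, 2 of the 10 RNAs (LINC03033 and UCA1, without LINC00511 and GAS5) and 19 list genes called. Over genes, the difference of replicates 1 and 2 correlated at -0.04 between Control and C9ko. This is 1 value from replicates 1 and 2 of these groups, so it cannot decide whether libraries of the same number were handled together.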
